A study of Oikopleura dioica with 67 samples.

Results

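FZD6 and SFRP1 are names of a Wnt receptor and of a secreted Wnt inhibitor, and 4 of 19277 unigenes (assembled transcripts) of the appendicularian Oikopleura dioica carry one of them. The members are all unigenes with the symbol FZD6 or SFRP1, whatever the case of the letters, and these names were selected on measured values of the 5 contrasts named further on. A single unigene is named SFRP1 (OD_K21COV15_DN10966_c0_g5_i1) and a single unigene FZD6 in capitals (OD_K29COV4_DN32213_c1_g1_i4). A pair named Fzd6 (OD_K25COV10_DN21074_c1_g1_i1 and OD_K25COV10_DN21074_c1_g1_i4) share an assembly cluster and are called Fzd6 i1 and Fzd6 i4. Reads could be split between that pair in counting, so the level of each of them is uncertain. A second sheet of the authors' deposited table names Fzd6 i1 "fzd2" and keeps the other 3 names, so the files do not settle which Frizzled it is. The symbols rest on similarity to vertebrate proteins, and the unigenes are not paired with a genome position in the sources used here.

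Frizzled proteins are receptors with a membrane-spanning part and a cysteine-rich domain outside the cell that binds Wnt ligands. Through Dishevelled they act on beta-catenin or on cell polarity, and in vertebrates FZD6 is known mainly for planar cell polarity in skin and hair. Secreted Frizzled-related proteins such as SFRP1 hold a like cysteine-rich domain without the membrane part, bind Wnts outside the cell and mostly dampen the signal. In chordate embryos Wnt signals pattern the vegetal side and the posterior end.

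RNA was sequenced from wild-type animals of a Japanese population kept in laboratory culture. The staged set holds whole animals as 13 stages of 3 libraries: unfertilized egg, fertilized egg, 2-cell, 4-cell, 8-cell, 16-cell, 32-cell, 1.5 hpf (hours post fertilization), 2.5 hpf tadpoles, 3 hpf hatched larvae, 5 hpf (early organogenesis), 8 hpf (late organogenesis) and 10 hpf juveniles. It also holds adult females and adult males with 2 libraries each. The hemisphere set holds 6 groups of 4 libraries: whole embryos, vegetal hemispheres and animal hemispheres, at 12 hpf and at the 8-cell stage. The sample titles name the 12 hpf samples only animal or vegetal, and such samples are called hemispheres here. The labels do not say whether they are parts of 12 hpf animals or were raised from hemispheres separated earlier. They also do not say whether libraries came from separate cultures, so p-values measure the spread between libraries only. Values are RPKM (reads per kilobase of unigene, scaled to the depth of the library), differences are on the scale of log2(RPKM + 1), which understates changes of low genes, and tests are limma's with Benjamini-Hochberg adjustment over all unigenes tested and a threshold of 0.05. The members were chosen by their values in 5 contrasts (vegetal against animal at 12 hpf and at 8 cells, 2.5 hpf against egg, 10 hpf against 3 hpf, females against males), so for these contrasts their values are described without a test.

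Staged libraries held 7785352 to 95644620 reads, of which 18.9% to 49.0% aligned, the lowest share in library 2 of 1.5 hpf. The summed RPKM ran from 739145 to 1234504 in staged and from 824912 to 1121461 in hemisphere libraries. Over 18546 unigenes, the mean profile of the whole embryos labelled 12 hpf correlated best with the staged 5 hpf group (Pearson r = 0.884 across unigenes), against 0.738 with 8 hpf and 0.687 with 10 hpf, which goes against the order that the label implies. Whole embryos labelled 8-cell correlated best with the staged 2-cell and fertilized egg groups (0.954 and 0.953) and at 0.928 with the staged 8-cell group. Both labels are kept here, and the 2 sets were normalized separately. In bulk RNA of this kind, fewer cells of a type and less RNA per cell cannot be told apart.

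SFRP1 was present at low level in every egg and cleavage library and reached its highest levels between hatching and early organogenesis. Eggs had 1.24, 4.11 and 3.13 RPKM, fertilized eggs 2.05, 6.97 and 7.26 RPKM, and 32-cell embryos 4.01, 6.503 and 3.51 RPKM. At 1.5 hpf the libraries had 16.4, 17.9 and 17.4 RPKM, all above every earlier library, and at 2.5 hpf 7.76, 12.9 and 15.7 RPKM. Hatched larvae of 3 hpf had 14.4, 37.9 and 44.7 RPKM, and 5 hpf larvae 37.2, 23.7 and 19.2 RPKM, so these neighbouring stages overlapped. SFRP1 then stood at 11.01, 3.79 and 3.501 RPKM at 8 hpf and at 3.61, 3.88 and 4.51 RPKM at 10 hpf, and the 10 hpf values lay within the range of the cleavage stages. As a description, its difference was 1.81 ± 0.43 for 2.5 hpf minus egg and -2.59 ± 0.43 for 10 minus 3 hpf (log2, SE, n = 3 each; 24.4% and 58% of unigenes called). No sequencing run held libraries of both stages of either difference, so stage and run cannot be told apart in them. With the lane as a term, these differences were 0.85 and -1.98. That setting was chosen after seeing the data and rests on other stages that were split between runs. After quantile normalization, which turned 6524 higher and 4315 lower calls for 10 minus 3 hpf into 4648 and 5932, the second difference was -3.93.

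FZD6 was at or near 0 until the 32-cell stage and appeared in full at 1.5 hpf. The 21 libraries from egg to 32-cell ran from 0 to 0.625 RPKM, and it was listed at 0 in 14 of them, all 3 of the 32-cell libraries and all 3 of the 2-cell libraries included. It had 29.6, 31.9 and 29.3 RPKM at 1.5 hpf, 14.1, 18.1 and 25.1 RPKM at 2.5 hpf, 24.04, 29.4 and 39.1 RPKM at 3 hpf, and 49.9, 27.9 and 43.4 RPKM at 5 hpf. At 8 hpf it was down to 1.72, 2.22 and 1.88 RPKM, and at 10 hpf to 0.674, 0.589 and 0.788 RPKM. The window from 1.5 to 5 hpf thus held every library above 10 RPKM, with no overlap with any other stage. Its described differences were 4.26 ± 0.25 for 2.5 hpf minus egg and -4.22 ± 0.25 for 10 minus 3 hpf. Stage and sequencing run cannot be told apart in these either.

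The Fzd6 pair came later and stayed on. Fzd6 i1 was no higher than 1.66 RPKM in any library up to 2.5 hpf. It had 7.70, 7.40 and 19.7 RPKM at 3 hpf, 86.9, 38.5 and 26.7 RPKM at 5 hpf, 20.7, 20.98 and 16.3 RPKM at 8 hpf, and 16.5, 15.6 and 14.6 RPKM at 10 hpf. Fzd6 i4 followed the same course at a lower level, with 20.5, 5.92 and 5.44 RPKM at 5 hpf and 3.57, 5.62 and 2.88 RPKM at 10 hpf. Library 6 of 5 hpf was the highest of its stage for both, and for SFRP1 and FZD6 as well. The described 10 minus 3 hpf differences were 0.52 ± 0.35 for Fzd6 i1 and 0.66 ± 0.33 for Fzd6 i4, with stage and sequencing run likewise not separable. In the 12 staged libraries with at least 5 RPKM of Fzd6 i1, Fzd6 i4 made up 10.1% to 26.6% of the summed RPKM of the pair, with a median of 17.3%.

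**Figure D1:**
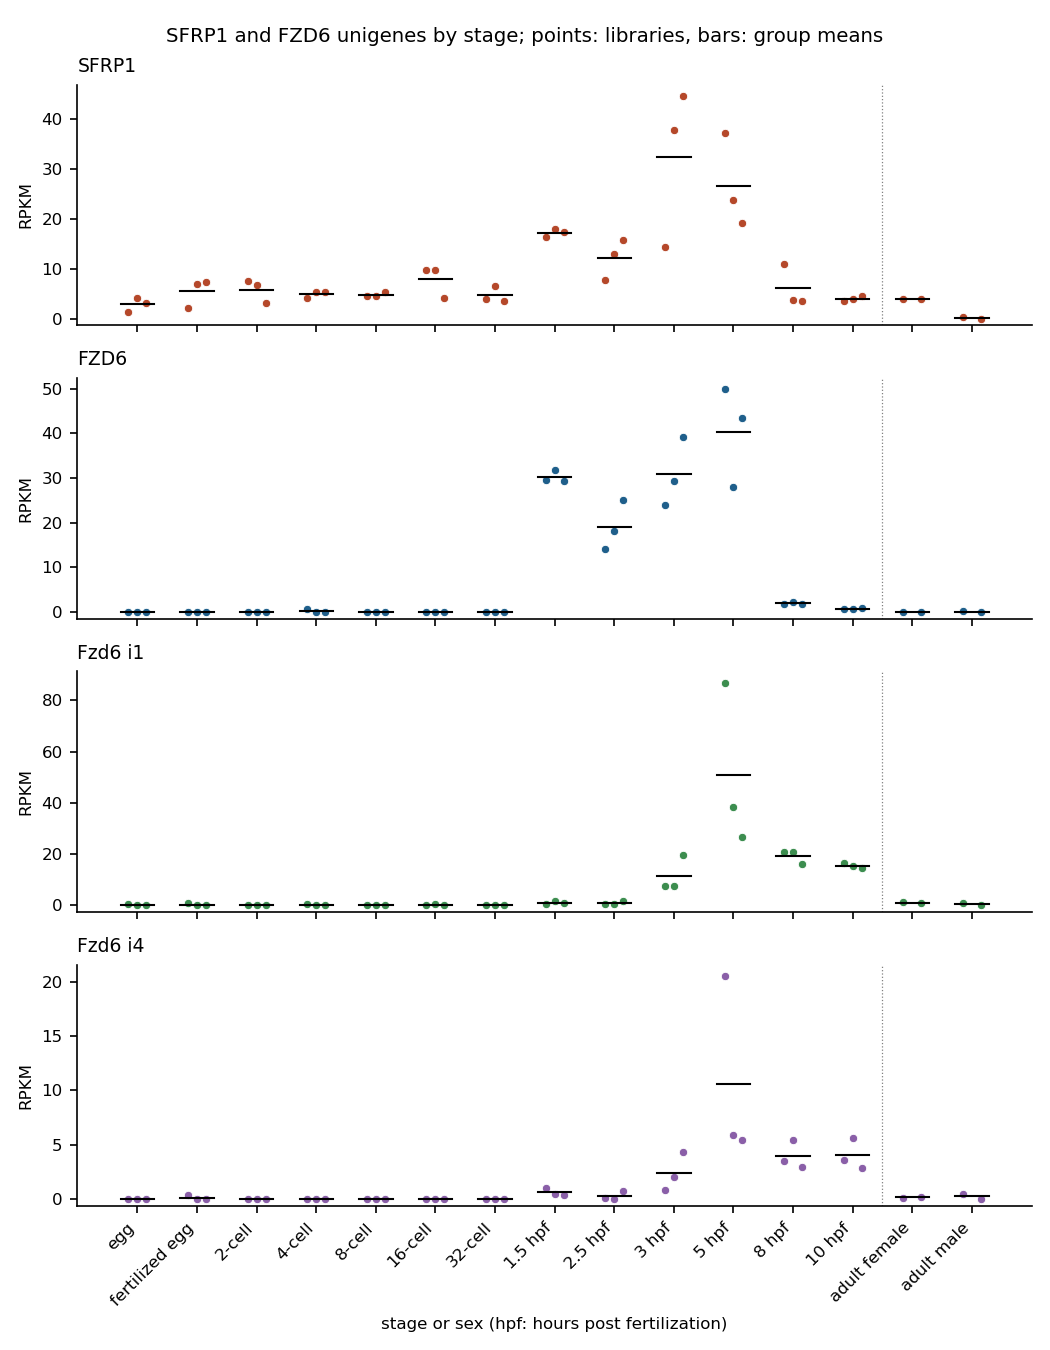
RPKM of the 4 members (vertical axes, linear) in each staged library (points) by stage and adult sex (horizontal axis), with group means as bars. SFRP1 shows a low level before 1.5 hpf and a maximum at 3 and 5 hpf, FZD6 fills only the 1.5 to 5 hpf window, and the Fzd6 pair peaks at 5 hpf and remains at 8 and 10 hpf.

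The unigene that made up most of the FZD6/Fzd6 signal was another one in early than in late stages. Fzd6 i1 is counted here under the name Fzd6, though the authors also name it fzd2. FZD6 made up 94.0% to 96.1% of the summed RPKM of the 3 FZD6/Fzd6 unigenes at 1.5 hpf and 91.2% to 96.7% at 2.5 hpf. Its share was 61.9% to 75.7% at 3 hpf and 31.7% to 57.4% at 5 hpf. It was 6.64% to 8.91% at 8 hpf and 2.71% to 4.33% at 10 hpf, so from 3 hpf on each stage lay below the one before without overlap.

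**Figure D2:**
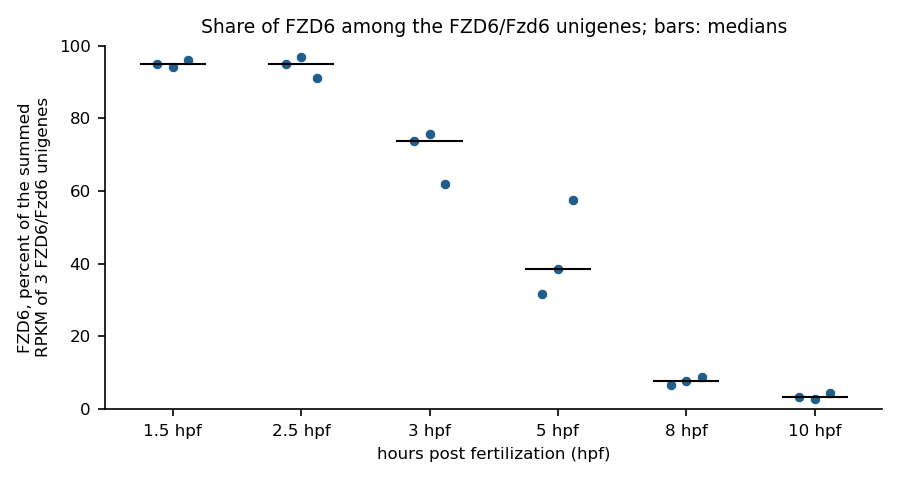
Share of FZD6 in the summed RPKM of FZD6, Fzd6 i1 and Fzd6 i4 (vertical axis, percent) in each of 3 libraries per stage (points) from 1.5 to 10 hpf, with medians as bars. The share is above 91% at 1.5 and 2.5 hpf and below 4.4% at 10 hpf.

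Between 1.5 hpf and the 32-cell stage, FZD6 and SFRP1 rose, 2 of the 4 members, where 14.5% of 18704 unigenes were called (11.5% higher). FZD6 was higher by 4.96 ± 0.25 (log2, SE, n = 3 each; adjusted p = 2.0e-17, limma), and no ratio of levels is given against 32-cell libraries listed at 0. SFRP1 averaged 17.2 ± 0.80 RPKM at 1.5 hpf and 4.68 ± 1.60 RPKM at the 32-cell stage (SD, n = 3 each), a log2 difference of 1.72 ± 0.43 (SE, adjusted p = 0.0043), which did not pass after quantile normalization (0.83, adjusted p = 0.068). Fzd6 i1 and Fzd6 i4 had differences of 0.93 and 0.67 that did not pass (adjusted p = 0.068 and 0.20), and both passed with a pseudocount of 0.1. Within the sequencing lane that held libraries of both stages, the differences were 4.93 for FZD6 and 1.69 for SFRP1. Over all unigenes, quantile normalization turned 2156 higher and 563 lower calls into 1251 and 1187.

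Against the fertilized egg, 1.5 hpf gave a like picture, with FZD6 and SFRP1 higher among the 4 members (14.7% of all unigenes called, 8.73% higher). FZD6 differed by 4.88 ± 0.25 (adjusted p = 2.4e-17) and SFRP1 by 1.64 ± 0.43 (adjusted p = 0.0061). The SFRP1 call rested on library 10 of the fertilized egg, which held 2.05 RPKM: without it the difference was 1.17 (adjusted p = 0.091). It was also lost on the TPM scale (RPKM rescaled to an equal sum in each library; 1.41, adjusted p = 0.065) and with the compared libraries alone (adjusted p = 0.070). Fzd6 i1 and Fzd6 i4 did not pass (0.61 and 0.53, adjusted p = 0.33 and 0.38), though both did with a pseudocount of 0.1. Within the 2 lanes that held both stages SFRP1 differed by 1.94 and 1.11 and FZD6 by 4.91 and 4.93. Over all unigenes, quantile normalization turned 1633 higher and 1111 lower calls into 1425 and 1474. Before that, none of the 4 members passed at any of the 5 steps from the fertilized egg to the 32-cell stage, with unadjusted p of 0.17 or more for each. The 3 FZD6/Fzd6 unigenes were at or near 0 in these libraries (at most 0.932 RPKM). A change of theirs could hardly be detected, so this is informative for SFRP1 only. Over all unigenes 0%, 0.00535%, 0.0214%, 0.561% and 1.76% were called at these steps in turn. The 95% interval for SFRP1 was -0.33 to 1.43 for 16-cell minus 8-cell and -1.48 to 0.28 for 32-cell minus 16-cell.

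From 5 to 8 hpf all 4 members fell, where 29.7% of all unigenes were called and 10.8% were lower. FZD6 fell most, to 1.94 ± 0.26 RPKM at 8 hpf against 40.4 ± 11.3 RPKM at 5 hpf (SD, n = 3 each), 20.8-fold lower in means (log2 difference -3.78 ± 0.25, adjusted p = 2.5e-14). SFRP1 fell to 6.10 ± 4.26 RPKM at 8 hpf against 26.7 ± 9.38 RPKM at 5 hpf (-2.07 ± 0.43, adjusted p = 0.00026). Fzd6 i1 differed by -1.18 (adjusted p = 0.0081) and Fzd6 i4 by -1.02 (adjusted p = 0.015), and both calls rested on library 6 of 5 hpf: without it they were -0.71 and -0.46 (adjusted p = 0.14 and 0.29). The Fzd6 i4 call was also lost without library 35 of 8 hpf (-0.88, adjusted p = 0.076). When only the 6 libraries compared were fitted, the FZD6 call alone was kept (SFRP1 adjusted p = 0.056).

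The 5 to 8 hpf differences of FZD6 and SFRP1 were of like size in both sequencing lanes that held libraries of each stage, at -3.78 and -3.77 for FZD6 and -2.07 and -2.06 for SFRP1. For Fzd6 i1 they were -0.34 and -1.61 and for Fzd6 i4 -0.01 and -1.53, so in the first lane, with 1 library of each stage, Fzd6 i4 was not lower by any more than that. Summed markers of the digestive tract (CPB1, CTRL and PRSS3, 3 of 3 found) ran from 1450 to 3650 RPKM at 8 hpf and from 622 to 1988 RPKM at 5 hpf, and those of sperm and axoneme (5 of 5 found) from 215 to 452 RPKM and from 43.3 to 162 RPKM; their part in the members' differences was not tested. Among all unigenes, quantile normalization turned 3549 higher and 2013 lower calls into 2680 and 2852.

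Over the longer spans the members parted. At 8 hpf against 1.5 hpf, Fzd6 i1 and Fzd6 i4 were higher by 3.36 ± 0.35 and 1.61 ± 0.33 (adjusted p = 1.7e-10 and 4.6e-05), while FZD6 and SFRP1 fell by 3.41 and 1.52 (adjusted p = 4.0e-14 and 0.0022), where 73.5% of unigenes were called, 56.7% higher and 16.8% lower. At 8 hpf against the fertilized egg the 3 FZD6/Fzd6 unigenes rose, by 3.97 for Fzd6 i1, 2.14 for Fzd6 i4 and 1.47 for FZD6 (adjusted p = 2.7e-12, 4.4e-07 and 2.9e-06), where 77.5% were called, 58.9% higher. SFRP1 averaged 6.10 RPKM at 8 hpf and 5.42 RPKM in fertilized eggs, with a difference of 0.12 and a 95% interval of -0.76 to 1.003.

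These long spans hold a shift of the whole table, with a median difference of all unigenes of 1.14 for 8 minus 1.5 hpf and 1.28 for 8 hpf minus fertilized egg. Quantile normalization removes it, and there Fzd6 i4 was at -0.29 (adjusted p = 0.42) against 1.5 hpf; with the lane as a term it was at 1.50 (adjusted p = 0.059). Against the fertilized egg FZD6 was at -0.41 (adjusted p = 0.32), Fzd6 i4 at 0.05 (adjusted p = 0.91) and SFRP1 at -1.97 (adjusted p = 9.6e-07). Over all unigenes it turned 11018 higher and 3484 lower calls into 5122 and 6093 for 8 hpf minus fertilized egg, and 10598 and 3141 into 5365 and 5958 for 8 minus 1.5 hpf. No lane held libraries of both stages in either span.

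Adults had little of any receptor member, and SFRP1 stood higher in females. SFRP1 had 3.90 and 4.00 RPKM in females, against 0.333 and 0 RPKM in males, so the sexes did not overlap (2 libraries each, described without a test). The log2 difference was 2.10 ± 0.53 (SE), where 46.8% of unigenes were called and the median of all was 0.73; after quantile normalization, with 3961 higher and 3508 lower calls in place of 7516 and 1237, it was 0.85. Fzd6 i1 had 1.19 and 1.11 RPKM in females, against 0.956 and 0.217 RPKM in males, and FZD6 at most 0.213 RPKM in any adult. As the mean of both sexes against 8 hpf, all 4 members were lower, where 66.5% of unigenes were called and 56.8% lower: Fzd6 i1 by -3.47, Fzd6 i4 by -2.05, FZD6 by -1.48 and SFRP1 by -1.42 (adjusted p = 2.7e-11, 4.4e-07, 1.2e-06 and 0.0026, n = 4 and 3).

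The SFRP1 adult call rested on library 8 of 8 hpf, which held 11.01 RPKM: without it the difference was -0.96 (adjusted p = 0.058). With the lane as a term it was -1.01 (adjusted p = 0.082), and within the shared lane it was 0.05 in females and -2.05 in males. The median of all unigenes was -1.05 for this contrast. After quantile normalization, which turned 1818 higher and 10627 lower calls into 5141 and 4879, FZD6, Fzd6 i4 and SFRP1 did not pass (-0.17, -0.37 and -0.05), while Fzd6 i1 still did. Adult males also held 9904 to 11746 RPKM of sperm and axoneme markers, against 44.8 to 68.8 RPKM in females. Summed striated muscle markers (TNNC1, TNNI3 and CKM) ran from 21244 to 34837 RPKM in males and from 37.8 to 42.7 RPKM in females. The sum is not split by gene here, so it does not show whether each of these markers was higher in males. Digestive and neuron (GAD1 and SLC18A3) marker sums overlapped between the sexes. The part of this makeup in the SFRP1 values was not tested.

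Ordered by group mean, SFRP1 ran from 3 hpf (32.3 ± 15.9 RPKM) through 5 hpf (26.7), 1.5 hpf (17.2) and 2.5 hpf (12.1) down to adult males (0.167 RPKM). Only 5 hpf with 1.5 hpf, 1.5 hpf with 2.5 hpf, and egg with adult male were neighbours in that order whose libraries did not overlap. FZD6 ran from 5 hpf (40.4) through 3 hpf (30.8), 1.5 hpf (30.3), 2.5 hpf (19.1), 8 hpf (1.94) and 10 hpf (0.684), with gaps between the 1.5, 2.5, 8 and 10 hpf groups, and the groups below that overlapped. Fzd6 i1 ran from 5 hpf (50.7 ± 31.9) through 8 hpf (19.3), 10 hpf (15.5) and 3 hpf (11.6) to adult females (1.15), with gaps after 5 hpf and after 3 hpf. No neighbouring groups of Fzd6 i4 were separate; it was highest at 5 hpf (10.6 ± 8.57).

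In the hemisphere set, SFRP1 stood higher on the vegetal side at both times. At 12 hpf it had 32.3, 146, 95.3 and 61.3 RPKM in vegetal hemispheres 3 to 6, against 0.991, 1.67, 1.93 and 3.02 RPKM in animal ones. At 8 cells it had 30.8, 34.96, 33.6 and 46.9 RPKM in vegetal hemispheres, against 10.8, 17.9, 11.7 and 13.4 RPKM in animal ones. The groups did not overlap at either time. The vegetal hemisphere held 95.3% to 98.9% of the summed RPKM of same-numbered hemispheres at 12 hpf and 66.1% to 77.8% at 8 cells.

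As a description, the vegetal minus animal difference of SFRP1 was 4.71 ± 0.42 at 12 hpf and 1.39 ± 0.42 at 8 cells (log2, SE, n = 4 each), where 48.2% and 0.401% of 15697 unigenes were called. For 12 hpf, the authors' deposited table of unigenes that differ between hemispheres lists SFRP1 with a vegetal over animal ratio of 29.2 and a p-value of 0.0154, and holds none of the other 3 members. Quantile normalization turned 5157 higher and 2409 lower calls at 12 hpf into 3546 and 3979. Marker sums stood the same way round at 12 hpf: digestive tract 1542 to 4658 RPKM in vegetal and 77.3 to 139 RPKM in animal hemispheres, muscle (TNNC1, TNNI3 and CKM) 392 to 1180 and 3.80 to 13.2 RPKM, sperm and axoneme 257 to 465 and 21.5 to 25.9 RPKM with TSSK6 at 0, and neurons (GAD1 and SLC18A3) 31.7 to 37.99 and 0 to 2.24 RPKM. Their part in the SFRP1 difference was not tested.

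The receptors were less one-sided. At 12 hpf FZD6 had 3.25, 9.12, 7.64 and 12.0 RPKM in vegetal hemispheres, against 0.159, 2.51, 9.96 and 0.910 RPKM in animal ones, so the groups overlapped through animal library 5. Fzd6 i1 had 12.3, 26.5, 36.3 and 49.0 RPKM in vegetal hemispheres, against 2.64, 8.63, 77.9 and 32.999 RPKM in animal ones, a spread within each group wider than the difference of their means (31.01 and 30.6 RPKM). Fzd6 i4 had 3.16, 14.8, 25.9 and 25.6 RPKM, against 1.96, 3.24, 32.9 and 9.19 RPKM. For all 3, number 5 was the only number with more in the animal than in the vegetal hemisphere.

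The vegetal minus animal differences at 12 hpf were 1.46 ± 0.51 for FZD6, 0.71 ± 0.66 for Fzd6 i1 and 0.86 ± 0.66 for Fzd6 i4 (SE). Without animal library 5 they were 2.07, 1.44 and 1.55, and without animal library 3 Fzd6 i1 was at -0.04. After quantile normalization FZD6 was at 0.35. At 8 cells these receptors were at or near 0, with at most 0.446 RPKM of FZD6, 0.316 RPKM of Fzd6 i1 and 1.05 RPKM of Fzd6 i4 in any hemisphere library, and no ratio is given. FZD6 made up 28.3% to 69.3% of the summed RPKM of the 3 FZD6/Fzd6 unigenes in whole embryos of 12 hpf, 10.9% to 18.1% in vegetal hemispheres and 2.11% to 17.5% in the 3 animal hemispheres with at least 5 RPKM in all.

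**Figure D3:**
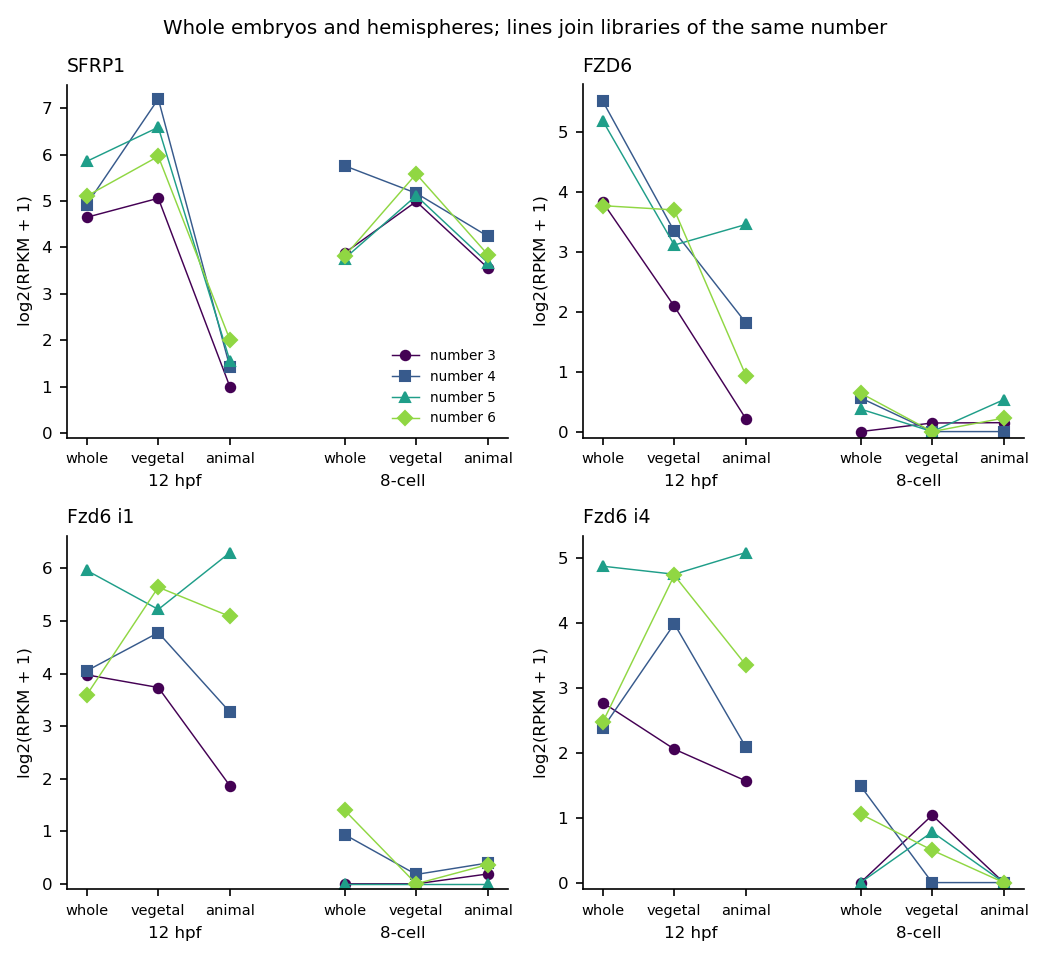
log2(RPKM + 1) of the 4 members (vertical axes) in whole embryos, vegetal and animal hemispheres (horizontal axis) at 12 hpf and at the 8-cell stage, with lines joining libraries of the same number. SFRP1 falls steeply between the vegetal and animal hemispheres in all 4 numbers at 12 hpf, and FZD6 is highest in whole embryos.

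Whole embryos had more of the receptors at 12 hpf than at 8 cells: 3 of the 4 members rose, where 79.1% of unigenes were called, 56.3% higher. FZD6 had 13.2, 44.6, 35.4 and 12.6 RPKM in whole embryos of 12 hpf, against 0, 0.476, 0.298 and 0.561 RPKM at 8 cells (log2 difference 4.18 ± 0.51, adjusted p = 9.9e-08). Fzd6 i1 had 14.7, 15.6, 61.4 and 11.1 RPKM, against 0, 0.915, 0 and 1.64 RPKM (3.81 ± 0.66, adjusted p = 1.7e-05), and Fzd6 i4 rose by 2.49 ± 0.66 (adjusted p = 0.0017). SFRP1 had 24.1, 29.3, 56.8 and 33.4 RPKM, against 13.7, 53.2, 12.54 and 13.0 RPKM, a difference of 0.83 ± 0.42 that did not pass (95% interval -0.04 to 1.70, adjusted p = 0.075). That miss rested on whole-embryo library 4 of 8 cells, which held the 53.2 RPKM: without it SFRP1 rose by 1.32 (adjusted p = 0.0033), and on the TPM scale by 0.98 (adjusted p = 0.042).

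The median of all unigenes was 1.17 for this contrast. After quantile normalization, with 4671 higher and 5189 lower calls in place of 8831 and 3587, Fzd6 i1 (2.15, adjusted p = 0.054) and Fzd6 i4 (0.67, adjusted p = 0.54) did not pass, while FZD6 did. The level of FZD6 in whole embryos of 12 hpf (12.6 to 44.6 RPKM) overlapped with the 14.1 to 49.9 RPKM of the staged 1.5 to 5 hpf libraries and lay above the 0.589 to 0.788 RPKM of 10 hpf, with the caveat that the sets were normalized separately.

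FZD6 was higher in whole embryos of 12 hpf than in either hemisphere of the same number, in 4 of 4 numbers. Whole embryos held 1.96 to 7.72 times the mean RPKM of the 2 hemispheres of the same number. The lowest whole embryo (12.6 RPKM) lay above the highest hemisphere (12.0 RPKM). Against the average of the hemispheres on the log2 scale, FZD6 was higher by 2.24 ± 0.44 (adjusted p = 0.00041), where 24% of unigenes were called, 22.7% higher. The hemisphere libraries in this contrast are also those of the vegetal against animal contrast by which the members were chosen. With hemispheres averaged in RPKM first, an alternative chosen after seeing the data, it was higher by 1.97 (adjusted p = 0.0011). Quantile normalization turned 3563 higher and 201 lower calls over all unigenes into 1982 and 1668, and FZD6 passed there too.

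SFRP1 also passed in that contrast, at 1.28 ± 0.37 (adjusted p = 0.011), but only on the mean of logs. SFRP1 was chosen with its wide vegetal to animal gap known, and such a gap by itself lowers the mean of logs. That pass is therefore no separate result. Whole embryos averaged 35.9 ± 14.5 RPKM and the mean of hemispheres 42.8 ± 24.5 RPKM (SD, n = 4 each), and with hemispheres averaged in RPKM the difference was -0.13 (adjusted p = 0.90). Without whole-embryo library 5 it did not pass either (1.04, adjusted p = 0.069). Fzd6 i1 and Fzd6 i4 did not pass, with 95% intervals of -1.28 to 1.096 and -1.52 to 0.86. At 8 cells 0% of unigenes passed with limma (97 at an unadjusted p under 0.05). There the 3 receptor unigenes were near 0 in whole embryos and hemispheres alike, so no difference was detectable. Whole embryos held 0.66, 2.01, 0.55 and 0.43 times the mean SFRP1 level of hemispheres 3 to 6, a log2 difference of -0.22 ± 0.37, and without whole-embryo library 4 of 8 cells it was -0.71 ± 0.33 (SE; adjusted p = 1 in both). Summed muscle markers were likewise higher in whole embryos of 12 hpf (1756 to 2277 RPKM) than in vegetal (392 to 1180 RPKM) or animal hemispheres (3.80 to 13.2 RPKM), while digestive markers (744 to 1024 RPKM) lay between; their part in the FZD6 difference was not tested.

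**Figure D4:**
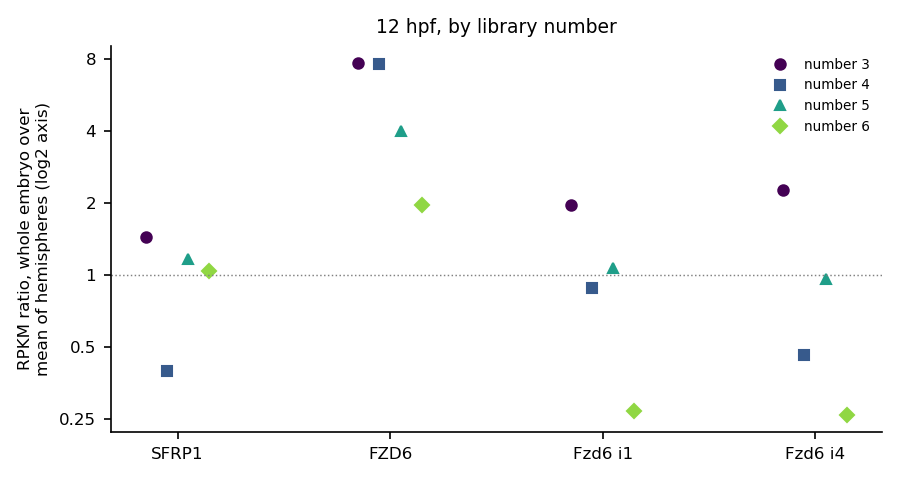
Ratio of RPKM in the whole embryo to the mean RPKM of the vegetal and animal hemispheres of the same number at 12 hpf (vertical axis, log2-spaced) for each member (horizontal axis). All 4 FZD6 ratios are at 1.96 or more, and those of the other members lie on both sides of 1.

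The genes most like each member over the 15 staged group means, among 9022 unigenes with another symbol and at least 5 RPKM in a group, were named by Pearson's r of log2 values. For FZD6 they were H1f0 (a linker histone, r = 0.982), PIM3 (a kinase, 0.968), HMCN2 (a matrix protein, 0.968), Onecut1 (a transcription factor, 0.967) and GLS2 (a glutaminase, 0.967). For SFRP1 they were Arhgef4 (0.953), DDX3X (an RNA helicase, 0.930), Srsf10 (a splicing factor, 0.918), PDF (0.914) and Ago1 (an Argonaute protein, 0.912). At 12 hpf the vegetal minus animal differences of these 5 ran from -1.34 to 0.90, beside 4.71 for SFRP1. SFRP1 was chosen with that contrast known and the 5 were not, so the gap is no separate result.

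For Fzd6 i1 the nearest was another Frizzled, Fzd3 (r = 0.999), then SLC35D1 (0.995), Elavl1 (0.995), CHST11 (0.994) and Slc35b1 (0.994). For Fzd6 i4 they were MNX1 (0.992), the same Fzd3 unigene (0.991), B4galnt1 (0.991), CLCN3 (0.990) and Irx1 (0.990). Among the members, r was 0.989 between the Fzd6 pair, 0.822 between SFRP1 and FZD6, and 0.460 to 0.581 for either of these with the Fzd6 pair. These are descriptions over 15 groups, and the points share libraries and stages.

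The wider pathway was read from a list of 63 Wnt unigenes, 59 without the members. It holds 9 other receptor unigenes (Fzd2 and Fzd3 as 2 each, FZD5, Fzd7, Lrp5, ROR1 and Ryk), and SFRP1 is its only unigene of a secreted inhibitor. Among the other Frizzleds, FZD5 (0.111 RPKM at the 32-cell stage, 19.5 at 1.5 hpf and 67.3 at 3 hpf, in group means) and one Fzd2 unigene (0.166, 28.4 and 73.7 RPKM) began at the same time as FZD6. Fzd7 and both Fzd3 unigenes were under 1.1 RPKM up to 2.5 hpf and highest at 5 hpf, as was the Fzd6 pair. The other Fzd2 unigene was maternal, at 265 RPKM in eggs and 56.0 RPKM at the 32-cell stage. It was higher again at 3 hpf (240 RPKM) and down to 24.8 RPKM at 8 hpf. ROR1 was at 17.3 RPKM in eggs, 69.0 RPKM in fertilized eggs and 125 RPKM at the 2-cell stage. It was at 64.6 RPKM at the 32-cell stage and at 148 RPKM at 1.5 hpf, its highest stage. The sets differed on ROR1: it averaged 100 RPKM at the staged 8-cell stage, but 1.55 RPKM in vegetal and 1.31 RPKM in animal 8-cell hemispheres. The cause was not tested.

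**Figure D5:**
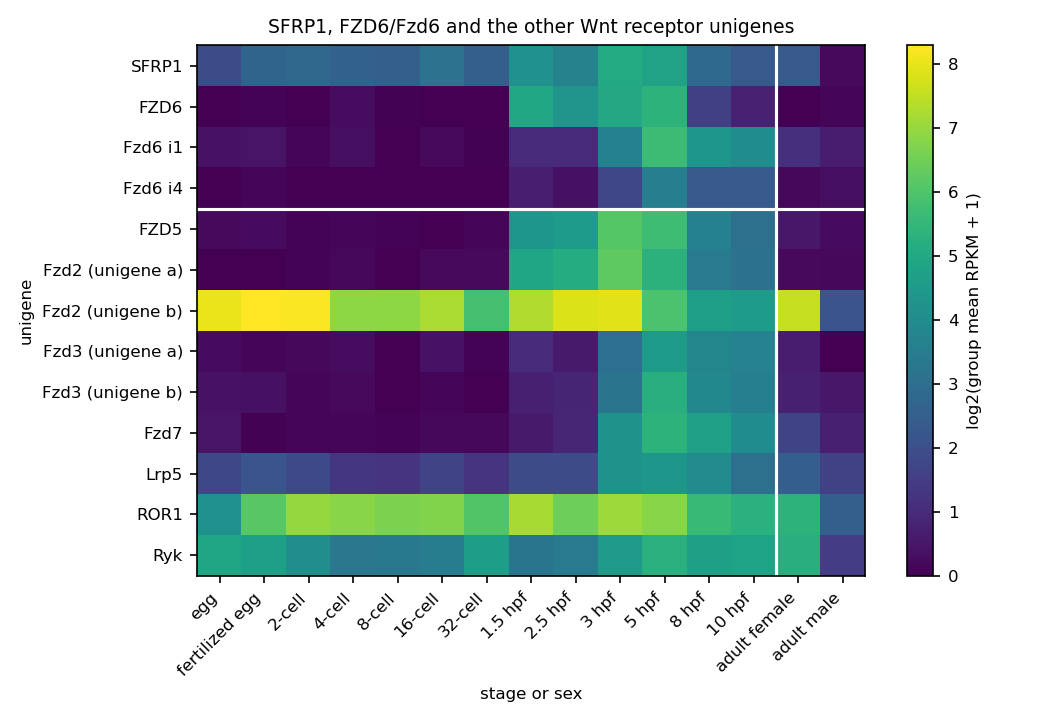
Group means on the scale of log2(mean RPKM + 1) (colour) of the 4 members, above the white line, and of the 9 other Wnt receptor unigenes, for the 13 stages and the adult sexes (horizontal axis). FZD6, FZD5 and Fzd2 unigene a light up at 1.5 hpf, and the Fzd6 pair, Fzd3 and Fzd7 at 3 and 5 hpf.

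Between hemispheres at 12 hpf, 2 of these 9 receptor unigenes passed, both higher on the vegetal side, a smaller share than the 48.2% of all unigenes called. FZD5 averaged 63.9 ± 15.8 RPKM in vegetal and 22.1 ± 4.13 RPKM in animal hemispheres (SD, n = 4 each; log2 difference 1.48, adjusted p = 3.2e-05), and Ryk 40.4 ± 7.44 and 22.3 ± 7.07 RPKM (0.85, adjusted p = 0.024). The other 7 had differences from -0.22 to 0.85, with no pass. The list was made with earlier results of these data known, this contrast among them, so these p-values are no independent support. At 8 cells none of the 9 passed with limma, and none had an unadjusted p under 0.05. Several of them, FZD5 and Fzd7 included, lay near 0 RPKM in both hemispheres there, where a difference could hardly be seen.

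In whole embryos of 12 hpf against 8 cells, 31 of the 55 list unigenes tested were higher, 14 lower and 10 did not pass, near the background of 56.3% of all unigenes called higher and 79.1% called in either direction. Their median was 1.08 beside 1.17 for all unigenes, and after quantile normalization the counts were 16 higher and 18 lower. The other receptors had 7 higher and 1 lower of 9. FZD5 averaged 66.0 RPKM at 12 hpf and 0.202 RPKM at 8 cells, the kinase GSK3B 63.9 and 7.37 RPKM, and the ligand Wnt2 36.1 and 0.993 RPKM. Lower were a pair of Wnt11 unigenes, at 0.0602 and 0.0597 RPKM at 12 hpf against 9.51 and 6.64 RPKM at 8 cells, and WNT4 at 0.0990 against 13.7 RPKM (adjusted p between 3.3e-14 and 1.1e-08 for these 6).

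At 8 hpf against the fertilized egg, 31 of 58 were higher, 12 lower and 15 did not pass, beside 58.9% of all unigenes called higher and 77.5% called in either direction. The median was 0.93 beside 1.28 for all unigenes (20 higher and 17 lower after quantile normalization). CTNNB1, the beta-catenin gene, averaged 23.1 RPKM at 8 hpf and 0.0406 RPKM in fertilized eggs, Fzd7 25.8 and 0.0344 RPKM, and the planar polarity gene CELSR3 9.56 RPKM and a listed 0. The maternal Fzd2 unigene (24.8 and 312 RPKM), PORCN, which acylates Wnts (4.70 and 49.9 RPKM), and WLS, which carries them to the surface (5.95 and 67.4 RPKM), were lower (adjusted p between 5.1e-14 and 3.4e-09 for these 6). The directions of all 12 named genes were kept after quantile normalization and on the TPM scale.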

How the data were processed

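RNA was sequenced from 67 libraries (43 staged, 24 hemisphere); per the labels it was extracted with TRIzol, and libraries were strand-specific for the staged set only. The authors' deposited RPKM tables were used for all member values; per the submitters' processing notes reads were aligned with HISAT2, and the version, counting tool and genome build are not given in the sources used here. A deposited sequencing table gives counts of reads and the percent of reads aligned per staged library. The authors' deposited ratio and p-value at 12 hpf, whose test the labels do not name, are printed only as such. The authors' deposited cluster numbers, a k-means group per unigene, put SFRP1 in cluster 2, FZD6 in cluster 1 and the Fzd6 pair in cluster 9.

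Unigenes at 1 RPKM or more in 4 hemisphere libraries (15697) or 2 staged libraries (18704) were fitted as log2(RPKM + 1), with a mean per group and a spread shared over the set, in limma 3.58.1 (R 4.3.3, eBayes with a trend); all 4 members passed both filters. The script was tested on simulated data. Summaries were computed in Python 3.11.15 (pandas 2.3.3, numpy 2.4.6) and plotted with matplotlib 3.10.9. Counts per unigene were not used here, so no counting interval is given. Same-numbered hemisphere libraries deviated together within each time (r from 0.315 to 0.701 at 8 cells and from 0.144 to 0.342 at 12 hpf). They did not across times, so their numbers pair them within a time. The main fits hold no such block. A block within each time changed no call of a member there. Over all unigenes at 12 hpf it gave 4988 calls in place of 3764 for whole embryos minus hemispheres. For vegetal minus animal at 12 hpf it gave 8845 in place of 7566. The stage labelled 2.5 hpf is headed 2 hpf in some sheets. Beside these, 137 columns of other sheets hold per-library values and were left out.

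The members and lists were chosen with earlier results of these data known. The text names all members, the 5 symbol-bearing unigenes most like each over the 15 staged group means, and from the Wnt list up to 3 with the smallest p per direction in whole embryos of 12 hpf against 8 cells and in 8 hpf against fertilized egg, and describes its receptors.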

Additional observations from a re-analysis of the deposited data

Results flagged for a closer look

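Whole-embryo library 4 of the 8-cell stage held 53.2 RPKM of SFRP1, far from the 12.54 to 13.7 RPKM of the other 3 libraries of its group. Whole-embryo library 5 of 12 hpf held 61.4 RPKM of Fzd6 i1, against 11.1 to 15.6 RPKM in the others, and 28.3 RPKM of Fzd6 i4, against 4.19 to 5.83 RPKM. Vegetal library 3 of 8 cells held 0.104 RPKM of FZD6 and vegetal library 4 of 8 cells 0.132 RPKM of Fzd6 i1, each beside 3 libraries listed at 0. A lone value beside 3 zeros is marked whatever its size, so the marks of these 2 groups carry no information. For groups without such zeros chance marks about 5%, and 23 groups with unequal values were looked at.

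The excess of FZD6 in whole embryos over the mean of both hemispheres was larger at 12 hpf than at 8 cells by 1.98 ± 0.62 (log2, SE). At 8 cells FZD6 was at most 0.561 RPKM in any library, where no excess could be seen, so this value restates the 12 hpf excess of 2.24 and is no separate result.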

How the results depend on the processing

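Of the members' tested differences under each alternative, 725 kept their direction and their side of the threshold, 22 no longer passed, 9 newly passed and 4 changed sign; of the described ones 243 moved by less than 1 SD, 18 moved further and 3 changed sign. Among the tested ones, sign changes of values that passed in neither fit are not counted. The sign changed after quantile normalization for 8 hpf minus fertilized egg (SFRP1 -1.97, FZD6 -0.41), for Fzd6 i4 in 8 minus 1.5 hpf (-0.29) and 10 minus 3 hpf (-0.065), and for Fzd6 i1 in 2.5 hpf minus egg (-0.25) and females minus males (-0.30). The sign of Fzd6 i1 in vegetal minus animal at 12 hpf changed too without animal library 3, and this is not among the sign changes counted. The sign also changed for SFRP1 in whole embryos of 12 hpf when hemispheres were averaged in RPKM (-0.13). That setting, the block within a time and the lane term were chosen after seeing the data. The causes were not tested.

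Counts over all unigenes moved most where few were called. For whole embryos minus hemispheres at 8 cells, with 0 calls (97 at an unadjusted p under 0.05), a pseudocount of 0.1 and no filter gave 1 each, quantile normalization 2, and leaving out a library 0 to 12. For 2-cell minus fertilized egg, with 0 calls (213 unadjusted), quantile normalization gave 1 and leaving out a library 0 to 1. For 4-cell minus 2-cell, with 1, a pseudocount of 0.1 and quantile normalization gave 4 each, TPM 0 and leaving out a library 0 to 50. For 8-cell minus 4-cell, with 4, a pseudocount of 0.1 gave 1, quantile normalization 7, TPM 2, the compared libraries alone 1 and leaving out a library 1 to 19. For 16-cell minus 8-cell, with 105, the compared libraries alone gave 23 and leaving out a library 54 to 193. For 32-cell minus 16-cell, with 330 (24 higher, 306 lower), quantile normalization gave 60 (36 higher, 24 lower), TPM 119, the compared libraries alone 1, the lane term 501 and leaving out a library 33 to 427.

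With the compared libraries alone, whole embryos minus hemispheres at 12 hpf gave 2466 in place of 3764, vegetal minus animal at 8 cells 34 in place of 63, 1.5 hpf minus 32-cell 5643 in place of 2719, and 8 minus 5 hpf 1606 in place of 5562. With the lane term, 2.5 hpf minus egg gave 8779 in place of 4567. With the replicate block, SFRP1 in whole embryos of 12 hpf minus 8 cells passed (0.83, adjusted p = 0.041), but the numbers do not pair libraries across times, and the block changed no other call of a member. The staged numbers differ between groups, so no block by number could be made there. RPKM without counts sets the limit for the receptors before 1.5 hpf, where values lie near 0.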

Other observations

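Among the members, SFRP1 alone was above 1 RPKM in every egg-to-32-cell library, and its whole-embryo levels at 8 cells were 13.7, 53.2, 12.54 and 13.0 RPKM in the hemisphere set beside 4.48, 4.53 and 5.23 RPKM in the staged set, which was normalized separately. FZD6 stood at 12.6 to 44.6 RPKM in whole embryos labelled 12 hpf beside 0.589 to 0.788 RPKM in staged 10 hpf animals, and summed digestive markers at 744 to 1024 RPKM beside 3863 to 5038 RPKM. In the 11 hemisphere-set libraries with at least 5 RPKM of Fzd6 i1, Fzd6 i4 made up 20.4% to 41.6% of the pair, beside 10.1% to 26.6% in the staged set.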
